A study of Mus musculus with 2 samples.

Results

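The conjugation enzymes of the glutathione S-transferase (*Gst*), UDP-glucuronosyltransferase (*Ugt*) and sulfotransferase (*Sult*) families were compared between mouse circumvallate papillae (CvP), the taste papillae at the back of the tongue, and tongue epithelium without papillae (Epi). Members were the rows of the deposited gene table whose symbol begins with *Gsta*, *Gstm*, *Gsto*, *Gstp*, *Gstt*, *Gstz* or *Gstk* and a digit, *Ugt1* to *Ugt3*, or *Sult* and a digit. They were 42 of 18498 rows, namely 21 *Gst*, 11 *Ugt* and 10 *Sult* rows, each with a symbol of its own. Both libraries came from male C57BL/6J mice aged 12 to 30 weeks and kept on normal chow, with no altered allele and no agent named in the labels. The study's CvP samples for RT-PCR included epithelium around the taste buds, and whether the sequenced pool did is not given in the sources used here. RNA of at least 20 mice was pooled for each tissue, and 1 poly(A) library was sequenced from each pool, so every value is that of 1 library and no p-value was calculated. Levels are given as RPKM, reads per kilobase of exon model scaled to the mapped reads of each library, a unit that allows levels of different genes to be compared per length. From the step between the lowest values, the libraries held an estimated 28377811 (CvP) and 27909729 (Epi) mapped reads. Each CvP/Epi ratio has a 95% exact (Clopper-Pearson) interval from estimated reads, which covers counting error and not the spread between mice. In pooled tissue, fewer cells of a type and less RNA per cell cannot be told apart.

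These enzymes carry out the conjugation step of detoxification. Glutathione S-transferases join the tripeptide glutathione to reactive electrophiles, UDP-glucuronosyltransferases of the endoplasmic reticulum add glucuronic acid, and cytosolic sulfotransferases add a sulfate group. The products are more soluble in water and leave the cell through ABC transporters. The epithelium of the tongue meets food compounds directly, and the same enzymes also act on endogenous lipids, steroids and transmitters.

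Of the 42 members, 31 reached an RPKM of 1 in at least 1 library (19 *Gst*, 8 *Ugt* and 4 *Sult*). In the CvP, 9 of these 31 were at least 2-fold higher, against 28.3% of the 12549 rows of the table past the same minimum, so this share was near that of all rows. The 31 include 8 *Ugt1a* rows of 1 locus with shared exons, and 0 of these rows differed by 2-fold. With that locus counted once, the share would be higher. The 9 were *Gsta3*, *Gsto1*, *Gsto2*, *Gstt1*, *Gstt2*, *Gstt3*, *Sult1c1*, *Sult1d1* and *Sult5a1*. At least 2-fold lower in the CvP was 1 member, *Gsta1*, against 3.76% of all such rows. A level above 10 in CvP together with a ratio above 3 was met by 1 of the 42, *Gsta3*, against 2.35% of all rows, and 0 members met the opposite criteria, against 0.6%. The plot of levels shows 2 *Gst* genes at 938 or above in both libraries, and *Sult1c1*, *Sult1d1* and *Sult5a1* below 10.

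**Figure D1:**
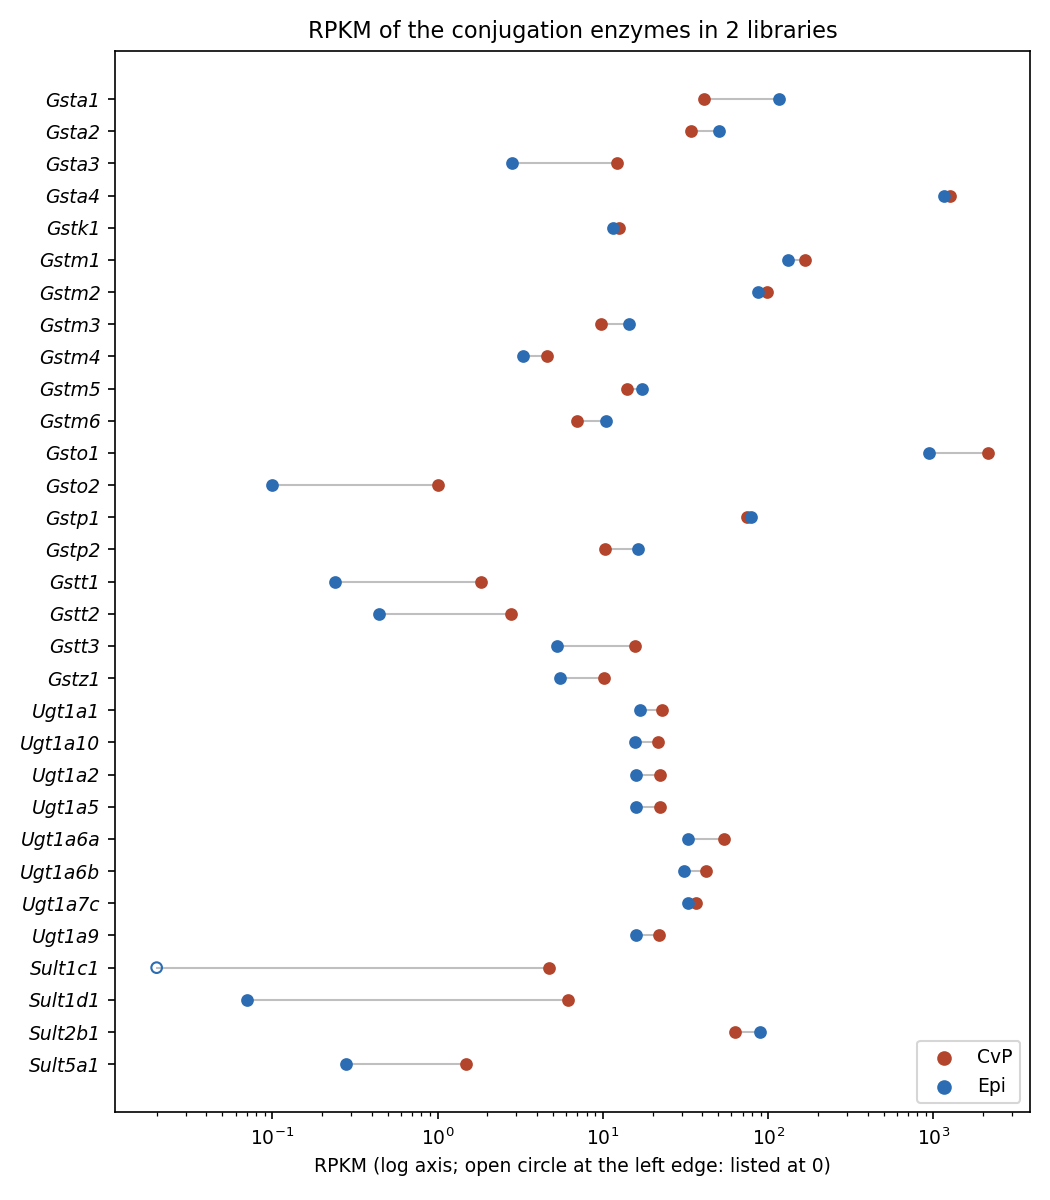
RPKM (log axis) of the 31 members that reached an RPKM of 1, in the CvP (red) and the Epi (blue), joined by a line for each gene. *Gsto1* and *Gsta4* lie far to the right of all other members in both libraries, and the widest gaps are those of *Sult1c1* (Epi listed at 0, open circle) and *Sult1d1*.

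Most genes of the table were somewhat higher in the CvP. The median ratio over the 10363 rows with an RPKM of at least 1 in both libraries was 1.31 (log2 0.39), and the ratios below can be read against it. With ratios divided by this median, 8 of the 31 members were at least 2-fold higher and 2 at least 2-fold lower (*Gsta1* and *Gstp2*), against 18.9% and 6.94% of all rows. With RPKM rescaled to the same sum in both libraries, 10 of 32 members past the minimum were higher and 1 was lower, against 42.8% and 2.89% of all rows. The share of members that were higher, 31.3%, was then below that of all rows.

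**Figure D2:**
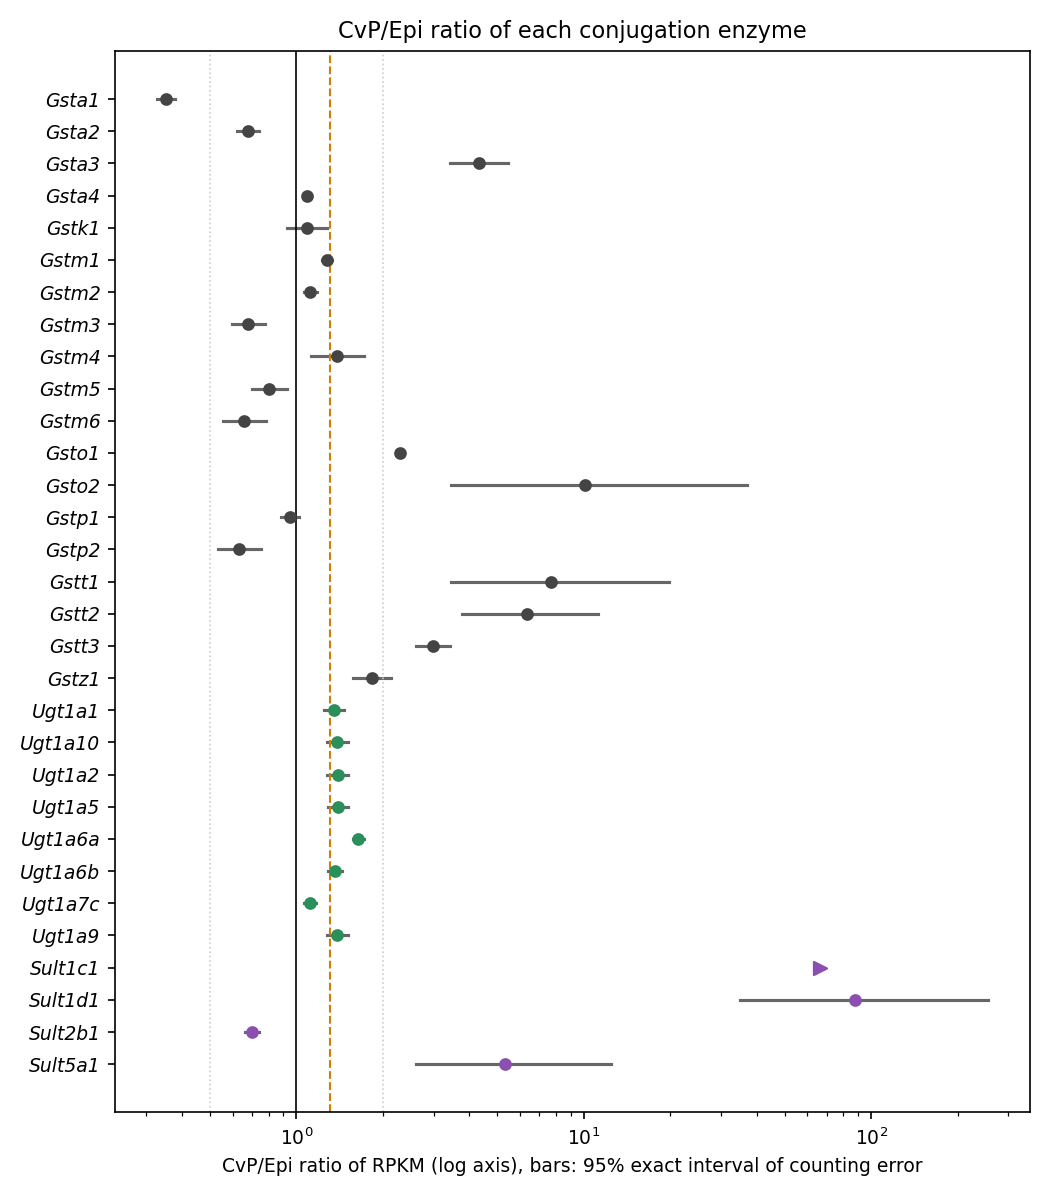
CvP/Epi ratio of RPKM (log axis) of the same 31 members, with the 95% exact interval of counting error as a bar (*Gst* grey, *Ugt* green, *Sult* purple). The solid line is a ratio of 1, the dashed line the median of all rows (1.31) and the dotted lines 2-fold; the arrow of *Sult1c1* stands at 66.6, its ratio against a floor of 3 Epi reads (lower 95% limit 53.6). The *Ugt* rows crowd around the dashed line, whereas the *Gst* and *Sult* genes lie on both sides of it.

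The *Gst* genes made up most of the conjugation transcripts. Their RPKM summed to 3920 in CvP and 2647 in Epi, which was 1.15% and 0.643% of the RPKM of the whole table. A pair of genes, *Gsto1* and *Gsta4*, held 86.8% of the *Gst* sum in CvP and 79.1% in Epi. The ratio of the sums was 1.48, and it rested on *Gsto1*: without it the ratio was 1.04. The other 19 *Gst* genes, without *Gsto1* and *Gsta4*, summed to 518 in CvP and 553 in Epi.

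*Gsto1* (Entrez 14873, NCBI37/mm9 chromosome 19, 47929479 to 47939278, plus strand) encodes an omega class enzyme with thioltransferase and dehydroascorbate reductase activity. Its RPKM was 2143 in CvP and 938 in Epi, and the ratio was 2.29 (95% interval 2.26 to 2.32). The gene was number 9 of all rows in the CvP and number 49 in the Epi. *Gsto2* (Entrez 68214), a second omega class gene, starts 756 bases downstream on the same strand and was at 1.01 in CvP and 0.10 in Epi. About 39 and 4 reads stood behind these values, and the ratio of 10.1 had an interval from 3.46 to 36.9. Both omega genes were therefore higher in the CvP, at levels that differed far more between the genes than between the tissues. Their coding sequences were 68.0% identical, and no 75-base window of one came within 2 mismatches of the other. The table lists a length of 8.87 kb for *Gsto1*, against 1.18 kb for the longest coding transcript in GENCODE M1, so its reads were estimated from the shorter length.

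The alpha class differed among its members. *Gsta4* (Entrez 14860, chromosome 9, 78039773 to 78057156, plus strand), whose enzyme conjugates 4-hydroxynonenal and other products of lipid peroxidation, was at 1259 in CvP and 1156 in Epi. The ratio of 1.09 (1.07 to 1.11) was above 1 as deposited and 0.829 after division by the median of all rows. *Gsta1* (Entrez 14857, chromosome 9, 78078476 to 78090490, plus strand) was at 41.1 in CvP and 117 in Epi, which was 2.85-fold higher in the Epi (2.65 to 3.06). *Gsta2* (Entrez 14858, chromosome 9, 78178827 to 78194952, minus strand) was at 34.2 in CvP and 50.5 in Epi, a CvP/Epi ratio of 0.676 (0.619 to 0.739). *Gsta3* (Entrez 14859), which lies apart from the others on chromosome 1 (21230670 to 21255640), went the other way, at 12.3 in CvP and 2.84 in Epi, a ratio of 4.31 (3.42 to 5.45). On chromosome 9 the 3 neighbours *Gsta4*, *Gsta1* and *Gsta2* thus spanned a 3.10-fold range of ratios within 155 kb. This range depends on how reads were split between *Gsta1* and *Gsta2*. The span also holds 2 rows that are not members, *Gm10639* and *Omt2a*, and they were not part of the window comparison.

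*Gsta1* and *Gsta2* are near-identical copies, and the separation of their reads bears on their ratios. The coding sequences differed at 14 of 669 aligned bases (97.9% identical), and 72.0% of the 75-base windows of the *Gsta1* transcript lay within 2 mismatches of *Gsta2*. The stretch of 75 bases with the most differences is shown to let a reader see how little tells the copies apart. It lies in the coding part of exon 7, the last exon of both genes, at bases 593 to 667 of the coding sequence (*Gsta1* chr9:78090306-78090380, plus strand; *Gsta2* chr9:78178936-78179010, minus strand), and capitals mark the 6 bases that differ.
Gsta1: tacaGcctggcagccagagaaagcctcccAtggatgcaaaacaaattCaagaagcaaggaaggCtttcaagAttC
Gsta2: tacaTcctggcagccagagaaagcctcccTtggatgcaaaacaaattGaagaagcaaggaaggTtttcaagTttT
How reads that match both copies were assigned is not given in the sources used here. The sum of both rows depends less on that assignment, and it was 75.3 in CvP and 167 in Epi, a ratio of 0.449 (interval of the summed reads 0.426 to 0.476). The lower CvP level of this pair therefore held for the sum, while the split between the 2 copies is uncertain. The markers of keratinized epithelium also summed to less in CvP (35421 against 93343 in Epi), and their part in this result was not tested.

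The mu class, a cluster of 7 genes within 149 kb of chromosome 3 (107698772 to 107847777), had ratios on both sides of 1. Its most abundant members were *Gstm1* (Entrez 14862), at 168 in CvP and 131 in Epi, a ratio of 1.28 (1.23 to 1.33), and *Gstm2* (Entrez 14863), at 97.9 and 87.4, a ratio of 1.12 (1.06 to 1.18). Both ratios were above 1 as deposited and below 1 after division by the median of all rows. *Gstm4* was at 4.57 in CvP and 3.30 in Epi, with a ratio of 1.38 (1.12 to 1.72). *Gstm3*, *Gstm5* and *Gstm6* had ratios below 1 under each scaling used, that of *Gstm5* only just (0.971) with RPKM rescaled to the same sum. *Gstm3* was at 9.73 and 14.3 (ratio 0.680, 0.596 to 0.777), *Gstm5* at 13.9 and 17.3 (ratio 0.805, 0.698 to 0.927) and *Gstm6* at 6.94 and 10.5 (ratio 0.660, 0.556 to 0.784). Of the 6 mu genes past the minimum, 0 differed by 2-fold, although each interval excluded 1. After division by the median of all rows, *Gstm6* was at 0.503 and *Gstm3* at 0.518. Reads of *Gstm3* may be hard to separate in part, since 17.0% of its windows lay within 2 mismatches of *Gstm1* and 23.2% within 2 of any other *Gst* member. *Gstm6* has 158 exon bases in common with *Gm12494* and *Gstm3* on the same strand, and 6.52% of its windows lay within 2 mismatches of *Gstm3*. *Gstm5* has 178 exon bases in common with an antisense gene, *4933431E20Rik*, which an unstranded count would mix.

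As deposited, the pi class was at like levels in both tissues or lower in the CvP. *Gstp1* (Entrez 14870, chromosome 19, 4035411 to 4037912, minus strand), an enzyme abundant in many epithelia, was at 74.8 in CvP and 78.8 in Epi. At this depth no difference was detectable (ratio 0.950, 0.886 to 1.02), and the ratio moved above 1 when RPKM was rescaled to the same sum. After division by the median of all rows the ratio was 0.724 (0.675 to 0.775). *Gstp2* (Entrez 14869), the neighbouring copy, was at 10.3 in CvP and 16.4 in Epi, a ratio of 0.631 (0.532 to 0.752). Divided by the median of all rows, its ratio was 0.481 (0.405 to 0.573). The copies were 98.1% identical in coding sequence, with 75.1% of *Gstp1* windows within 2 mismatches of *Gstp2*. The stretch of 75 coding bases that differs most, from exons 2 and 3 on the minus strand (*Gstp1* chr19:4037356-4037618; *Gstp2* chr19:4041650-4041936, introns included), is given with the 6 differing bases in capitals, because reads from elsewhere in the transcript would often match both.
Gstp1: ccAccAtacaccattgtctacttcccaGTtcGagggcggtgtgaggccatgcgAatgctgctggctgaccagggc
Gstp2: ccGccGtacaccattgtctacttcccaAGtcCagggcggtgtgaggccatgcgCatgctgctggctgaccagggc
Summed, the pi pair was at 85.2 in CvP and 95.2 in Epi, a ratio of 0.895 (interval of the summed reads 0.840 to 0.955).

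Of the 4 theta class genes, 3 were higher in the CvP, and the other had about 1 read in all. *Gstt3* (Entrez 103140), *Gstt1* (Entrez 14871), *Gstt4* and *Gstt2* (Entrez 14872) lie in this order within 60.8 kb of chromosome 10 (75236867 to 75297626), with no other row of the table between them. Theta enzymes act on small halogenated compounds and organic hydroperoxides. *Gstt3* was at 15.8 in CvP and 5.27 in Epi, a ratio of 2.99 (2.60 to 3.43). *Gstt2* was at 2.80 and 0.44, a ratio of 6.36 (3.76 to 11.2), and *Gstt1* at 1.84 and 0.24, a ratio of 7.67 (3.44 to 19.8). The 3 intervals lay above the median of all rows, and those of *Gstt1* and *Gstt2* overlapped. For *Gstt4*, with about 1 read in CvP and 0 in Epi, no difference could be detected. None of these 4 transcripts had a 75-base window within 2 mismatches of another *Gst* gene, although *Gstt3* shares 524 exon bases with the annotated locus *RP23-333M15.8* on the same strand.

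The remaining classes have 1 gene each. *Gstz1* (Entrez 14874), the maleylacetoacetate isomerase of tyrosine breakdown, was at 10.2 in CvP and 5.54 in Epi, a ratio of 1.83 (1.57 to 2.14). It shares 127 exon bases with the antisense gene *Pomt2*. *Gstk1* (Entrez 76263), a mitochondrial and peroxisomal enzyme, was at 12.6 and 11.5, and its interval of 0.931 to 1.28 held a ratio of 1. Its ratio of 1.09 fell below 1 after division by the median of all rows.

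The 8 *Ugt1a* rows stand for 1 locus on chromosome 1 (89951986 to 90116577, plus strand). Each *Ugt1a* transcript joins a first coding exon of its own, which encodes the part of the enzyme that binds the substrate, to the same 4 downstream exons, which start at 90111619. In 7 rows these exons run to 90116577 and in *Ugt1a6b* to 90115573, and the transcripts of *Ugt1a6a* and *Ugt1a6b* have a further, noncoding exon of their own upstream. The bases on both sides of this junction are shown because they explain why the 8 rows cannot be read as independent genes. Capitals mark the last 24 bases of the first coding exon, lower case the first 24 bases of the shared exons, read from GENCODE M1 transcripts on NCBI37/mm9, all within coding sequence. The first coding exons end at 89952911 (*Ugt1a10*), 89968253 (*Ugt1a9*), 89992553 (*Ugt1a7c*), 90004374 (*Ugt1a6b*), 90035906 (*Ugt1a6a*), 90063478 (*Ugt1a5*), 90098075 (*Ugt1a2*) and 90109446 (*Ugt1a1*).
Ugt1a10: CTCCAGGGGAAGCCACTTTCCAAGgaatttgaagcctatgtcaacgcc
Ugt1a9: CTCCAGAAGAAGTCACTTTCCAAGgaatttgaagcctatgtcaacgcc
Ugt1a7c: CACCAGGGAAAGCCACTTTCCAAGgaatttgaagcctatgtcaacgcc
Ugt1a6b: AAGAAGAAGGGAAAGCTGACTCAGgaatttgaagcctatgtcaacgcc
Ugt1a6a: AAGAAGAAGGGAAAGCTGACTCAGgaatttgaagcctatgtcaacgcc
Ugt1a5: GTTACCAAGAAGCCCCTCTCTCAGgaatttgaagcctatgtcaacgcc
Ugt1a2: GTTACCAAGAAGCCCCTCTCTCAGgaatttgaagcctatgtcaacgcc
Ugt1a1: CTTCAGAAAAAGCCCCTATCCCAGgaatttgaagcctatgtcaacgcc
The shared part is the same in all 8, and there are 6 distinct ends of the first coding exon, since *Ugt1a6a* and *Ugt1a6b* share one and *Ugt1a5* and *Ugt1a2* share another.

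As deposited, each of the 8 rows was higher in the CvP, with ratios from 1.12 to 1.64, and 0 differed by 2-fold. *Ugt1a6a* (Entrez 94284) was the highest, at 53.9 in CvP and 32.9 in Epi, a ratio of 1.64 (1.57 to 1.72). *Ugt1a6b* (Entrez 394435) was at 42.2 and 31.0 (ratio 1.36), and *Ugt1a7c* (Entrez 394432) at 36.5 and 32.7 (ratio 1.12, 1.06 to 1.17), which fell below 1 after division by the median of all rows. The other rows were nearly alike. *Ugt1a1* (Entrez 394436), whose enzyme glucuronidates bilirubin, was at 22.7 in CvP and 16.7 in Epi, and *Ugt1a2*, *Ugt1a5*, *Ugt1a9* and *Ugt1a10* were at 21.7 to 22.1 in the CvP and 15.6 to 15.9 in the Epi.

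The reads of these rows were then estimated with the exons of the annotated transcripts, the last exon being extended to the end of each row. For *Ugt1a9* this model was 3.195 kb long, against 2190 bases in the annotated transcript. For the 7 rows that end at 90116577, RPKM was multiplied by the length of the exon model (own and shared exons), which gives RPM, reads scaled to the mapped reads without regard to length. In the CvP the 5 rows *Ugt1a10*, *Ugt1a9*, *Ugt1a5*, *Ugt1a2* and *Ugt1a1* gave 70.1 to 73.2 RPM, and in the Epi 50.4 to 54.0. These 5 rows were chosen as those within 10% of the lowest row in the CvP, so their closeness there was set by this choice. Their first coding exons differ in sequence. In the Epi, which the choice did not use, the values also lay within 10% of the lowest row. With the length listed in the table, which runs from 3.21 to 5.47 kb in these rows, they spread from 70.4 to 124 RPM in the CvP and from 50.6 to 91.5 in the Epi. *Ugt1a6a* stood above them, at 178 in CvP and 108 in Epi, and *Ugt1a7c* at 118 and 106. With the lowest row of each library (*Ugt1a9*) taken as the part common to all rows, the own exons of *Ugt1a6a* held 109 in CvP and 58.8 in Epi on the RPKM scale, per length of these exons, a ratio of 1.86 (1.75 to 1.98). That of *Ugt1a7c* held 52.3 in CvP and 60.3 in Epi, a ratio of 0.868 (0.806 to 0.934), and the intervals of these ratios do not overlap. With the listed length in place of the exon model, an alternative chosen after seeing the data, these ratios were 1.86 and 0.874. The common part had a ratio of 1.39, close to the median of all rows.

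**Figure D3:**
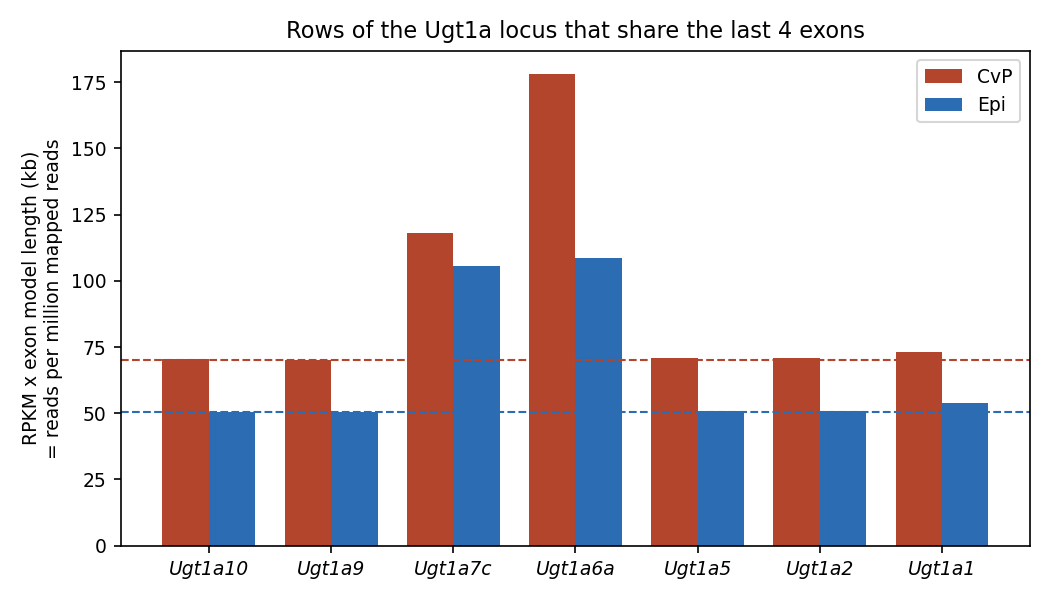
RPKM multiplied by exon model length, in RPM, for the 7 *Ugt1a* rows that share the whole of the last 4 exons, in the CvP (red) and the Epi (blue). The dashed lines are the lowest row of each library, 70.1 and 50.4. *Ugt1a6a* and *Ugt1a7c* rise far above them in both libraries. The other 5 rows stay within 10% of them, which in the CvP was the limit by which they were chosen.

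These own-exon values rest on the assumption that reads in the shared exons were counted in full for every row, and how ERANGE treated such reads is not given in the sources used here. Of the 75-base windows in the own exons of *Ugt1a6a*, 71.8% lay within 2 mismatches of *Ugt1a6b*, so reads of this pair could have been exchanged. *Ugt1a6b* could not be treated in the same way, since its row ends earlier, at 90115573, and holds 1312 of the 2316 shared bases. The first exon of *Ugt1a7c* had no window within 2 mismatches of the own exons of another row. The intervals treat the common part as known, and the locus also carries an antisense gene. The 3 other *Ugt* rows, *Ugt2b1*, *Ugt2b34* and *Ugt3a2*, had at most 3 estimated reads in either library, and their ratios are not given because they rest on so few reads.

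The *Sult* family held the members with the highest CvP/Epi ratios as well as an abundant gene that was lower in the CvP. *Sult2b1* (Entrez 54200, chromosome 7, 52985353 to 53014925, minus strand), the cholesterol and pregnenolone sulfotransferase of stratified epithelia, was at 62.7 in CvP and 89.5 in Epi. Its ratio of 0.701 (0.663 to 0.740) stayed below 1 under each scaling used. It made up most of the *Sult* sum of 76.3 in CvP and 90.3 in Epi. The ratio of these sums was 0.844, moved to 1.02 with RPKM rescaled to the same sum, and was 16.2 without *Sult2b1*. Here too the lower sum of keratinized epithelium markers in CvP stands beside the result, and its part was not tested.

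*Sult1d1* (Entrez 53315, chromosome 5, 87983675 to 87998031, minus strand), whose enzyme sulfates catecholamines, was at 6.17 in CvP and 0.07 in Epi. About 419 and 5 reads stood behind these values, and the ratio of 88.1 had an interval from 35.0 to 255. *Sult1c1* (Entrez 20888, chromosome 17, 54100940 to 54129956, minus strand) was at 4.73 in the CvP, about 203 reads, and was listed at 0 in the Epi. By the lower 95% limit it was at least 53.6-fold higher in the CvP, and the ratio against a floor of 3 reads was 66.6. *Sult5a1* (Entrez 57429, chromosome 8, 125666747 to 125682180) was at 1.49 in CvP and 0.28 in Epi, about 49 and 9 reads, a ratio of 5.32 (2.60 to 12.4). These 3 genes were low in absolute terms, with CvP levels from 1.49 to 6.17, and their transcripts had no 75-base window within 2 mismatches of another *Sult* gene. Markers of taste cells (summed RPKM 513 and 6.18) and of immune cells (237 and 33.7) were higher in the same library, and their part in these 3 ratios was not tested.

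The direct neighbours of *Sult1d1* and *Sult1c1* stayed below an RPKM of 1 in both libraries. *Sult1b1* and *Sult1e1*, on either side of *Sult1d1* within 78.3 kb, were at 0.22 and 0.03 in CvP and 0.11 and 0 in Epi. *Sult1c2*, which ends 115656 bases before *Sult1c1*, was at 0.22 in the CvP (about 9 reads) and 0 in the Epi, with a lower 95% limit of the ratio of 1.94 and a ratio of 2.95 against the floor. *Sult1c1* and *Sult1c2* were 67.5% identical in coding sequence.

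In all, 11 members stayed below an RPKM of 1 in both libraries. They were *Gstm7*, *Gstt4*, *Sult1a1*, *Sult1b1*, *Sult1c2*, *Sult1e1*, *Sult4a1*, *Sult6b1*, *Ugt2b1*, *Ugt2b34* and *Ugt3a2*, and the highest value among them was 0.44, for *Sult1a1* in the CvP. At most 17 reads were estimated for any of them in either library. The intervals of *Gstm7*, *Sult1a1*, *Sult1b1* and *Sult4a1* held a ratio of 1, and the depth did not allow a difference to be detected. *Sult6b1* had about 10 and 2 reads, and the ratio was 4.25 (1.05 to 46.2).

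The other genes of conjugation were described from 7 lists, by how many of their members past an RPKM of 1 differed by 2-fold, beside 28.3% higher and 3.76% lower over all rows, and by their median log2 ratio (pseudocount 0.1), beside 0.50 over all rows. The corresponding median was 0.16 for the 19 *Gst* genes and 0.47 for the 8 *Ugt* rows, which share exons and are not independent. In the list of glutathione synthesis and recycling, 4 of 17 genes were higher in the CvP and 1 was lower, with a median of 0.33. *Gclc*, the catalytic subunit of the rate-limiting enzyme of glutathione synthesis, was at 55.1 in CvP and 15.3 in Epi (ratio 3.61), and *Gsr*, which reduces oxidized glutathione, at 14.02 and 2.87 (ratio 4.89). The glutaredoxin *Glrx* went the other way, at 227 and 682 (ratio 0.332). The NADPH-producing enzymes *Pgd* (131 and 120) and *G6pdx* (113 and 133) were close to equal, and *Idh1* was at 83.7 and 31.0 (ratio 2.70).

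Among microsomal glutathione transferases, glutathione peroxidases and related genes, 10 of 18 were higher in the CvP and 1 was lower, with a median of 1.22. *Gpx2*, an epithelial glutathione peroxidase, was at 439 in CvP and 398 in Epi, *Clic1* at 202 and 162, and *Gpx1* at 84.2 and 85.7. *Prdx6*, a peroxiredoxin that uses glutathione, was lower in the CvP, at 178 and 398 (ratio 0.446). *Gpx4*, which reduces lipid hydroperoxides, was at 25.97 and 7.38 (ratio 3.52), and *Gpx8* at 11.1 and 3.03 (ratio 3.68). The secreted peroxidase *Gpx3* was at 15.5 and 0.40, a ratio of 38.8 (24.1 to 65.1). *Ltc4s*, leukotriene C4 synthase, was at 12.7 and 0.06, about 258 and 1 reads, a ratio of 212 (45.1 to 10061). Markers of taste cells (summed RPKM 513 and 6.18) and of immune cells (237 and 33.7) were higher in the same library, and their part in this ratio was not tested.

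The other cofactors are made from UDP-glucose and from sulfate and ATP. For UDP-glucuronate supply and deconjugation, 5 of 13 genes were higher and 0 lower, with a median of 0.87. *Ugdh*, which makes UDP-glucuronate, was at 15.7 in CvP and 11.5 in Epi (ratio 1.37), and *Ugp2*, one step before it, at 13.9 and 11.6 (ratio 1.19). Neither was among the 5. The same list also holds other sugar transferases, among them *Ugcg* at 48.9 and 64.5 and *B3gat3*, which was among the 5, at 12.8 and 4.81. For sulfate donor supply and sulfatases, 5 of 12 were higher and 0 lower, with a median of 0.86. *Papss1*, which makes the sulfate donor PAPS, was at 42.5 and 37.9, *Impad1* at 18.8 and 15.6, *Slc26a2* at 17.7 and 12.8, *Bpnt1* at 14.6 and 6.72, and sulfite oxidase *Suox* at 15.1 and 3.93 (ratio 3.85).

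Of other conjugating enzymes, 4 of 6 were higher in the CvP, with a median of 2.65 that fell to 0.96 at a minimum RPKM of 3. The acetyltransferase *Nat2* was at 4.10 in CvP and 2.06 in Epi. *As3mt*, arsenite methyltransferase, was at 4.71 and 0.10 (ratio 47.1, 19.4 to 143), and *Hnmt*, histamine methyltransferase, at 2.19 and 0.11 (ratio 19.9, 8.32 to 63.1). Among conjugate export pumps 4 of 8 were higher and 0 lower, with a median of 0.88. *Abcc1* was at 25.1 and 16.9, *Abcc4* at 12.2 and 6.06, and *Abcc3* at 9.41 and 5.46. In the list of *Nfe2l2* (Nrf2), xenobiotic receptors and their targets, 3 of 22 genes were higher and 1 lower, with a median of 0.05, below that of all rows. *Aldh3a1*, an aldehyde dehydrogenase, was at 1116 and 1102, *Nfe2l2* itself at 188 and 231, *Txn1* at 103 and 131, and heme oxygenase *Hmox1* at 59.8 and 163 (ratio 0.367). The counts of several lists depended on the scaling. Divided by the median ratio of all rows, 1 of 8 export pumps was higher and 1 lower, and 2 of 12 genes of sulfate supply were higher. Of the 22 genes of the Nrf2 list, 0 were then higher and 4 lower. Over all rows 18.9% were higher and 6.94% lower under this scaling. Rescaled to the same sum, which let more rows past the minimum, 8 of at most 16 genes of the sulfate list were higher. The list of UDP-glucuronate supply then had 8 of 13 higher. Over all rows 42.8% were higher under this scaling.

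**Figure D4:**
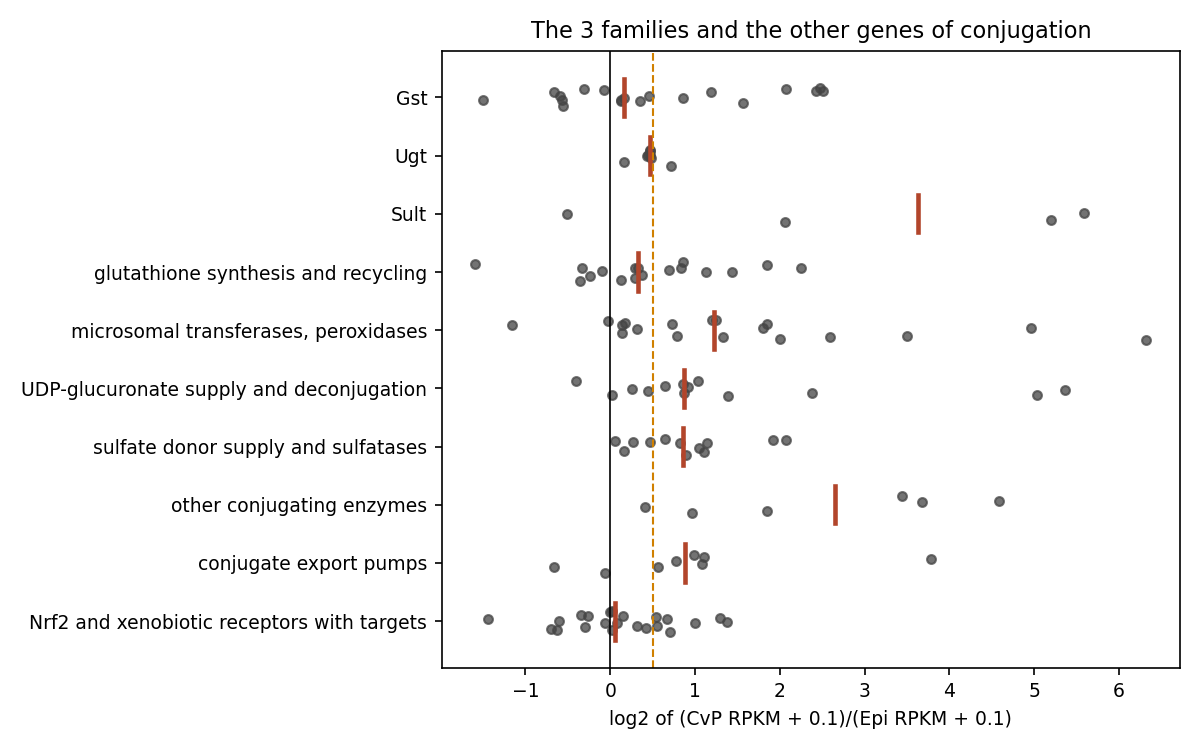
Log2 of the CvP/Epi ratio (pseudocount 0.1 RPKM) of each gene past an RPKM of 1 in the 3 families and the 7 lists, with the median of each as a red bar; the dashed line is the median of all rows, 0.50. The *Gst* genes and the Nrf2 list have medians to the left of the dashed line, the *Ugt* median, 0.47, is close to it, and the 4 *Sult* genes lie far apart around a median of 3.63.

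Markers of cell types were also compared between the 2 libraries, and the lists went in different directions. All 10 taste cell markers were at least 2-fold higher in the CvP (summed RPKM 513 in CvP and 6.18 in Epi, *Pkd2l1* and *Kcnq1* listed at 0 in the Epi), led by *Gnat3* (127 and 0.03) and *Krt8* (113 and 0.36). Of 8 markers of keratinized epithelium, 6 were at least 2-fold lower in the CvP and 0 higher (sums 35421 and 93343), led by *Krt13* and *Krt4*. Of 5 basal epithelial markers, 4 had a ratio above 1 (*Krt5* at 1506 and 1271), while *Krt14* was at 295 and 1140, and their sums were 1965 and 2489. Gland markers summed to 24.1 and 439, with *Lipf* at 1.96 and 313, *Amy1* at 0.85 and 80.5, and *Dcpp1* listed at 0 in the CvP. Of the 8 gland markers past the minimum 5 were at least 2-fold lower in the CvP and 2 higher, *Pigr* (12.01 and 0.54) and *Aqp5* (6.09 and 0.69). The airway-type secretory list summed to 940 and 316, nearly all of it *Cyp2f2* (935 and 305), while its defining marker *Scgb1a1* was at 2.11 and 10.2. Immune markers summed to 237 and 33.7 (*Lyz2* at 132 and 0.43, *Cd74* at 60.6 and 19.9). Of the 7 past the minimum 6 were at least 2-fold higher in the CvP, while *Cd207* was at 0.85 and 1.33. Muscle markers (*Acta1* at 0.86 and 12.9, *Ckm* at 0.67 and 10.6) summed to 2.85 and 42.8. Fibroblast markers summed to 27.5 and 128, with *Dcn* at 26.1 and 128, *Pdgfra* at 1.30 and 0.07 and both type I collagen genes below 1. Glial markers summed to 11.6 and 9.32 (*Mbp* at 10.3 and 8.94). The hepatocyte markers *Alb*, *Apoa1*, *Ttr* and *Serpina1a* summed to 0.41 and 0.23. The part of these cell types in the ratios of the conjugation enzymes was not tested.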

How the data were processed

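RNA of the CvP and Epi was sequenced as 75-base single-end reads, mapped by the authors with Bowtie 0.12.7 to NCBI37/mm9 and deposited as RPKM per gene from ERANGE. The table's CvP/Epi ratio column, the authors' own comparison, was not used. The members and lists were chosen with earlier results of these data known. No test was made, since each tissue has 1 library. Depth was read from the RPKM step in the 163 rows of 0.1 kb, where 1 read was worth 0.352 (CvP) and 0.358 (Epi). Among low values of short rows, 96.4% and 97.4% lay within 0.1 of a whole read. Reads were RPKM times depth times length, for which the table's own or that of the GENCODE M1 transcript (longest coding one, same build) was taken, whichever was shorter. For the RPM and own-exon values of the *Ugt1a* rows, the exon model with its extended last exon was taken instead. For ratios no pseudocount was used, for log2 medians 0.1. Genes with at most 3 Epi reads and more than 3 CvP reads were given a bound against 3 reads. Named were all members with an RPKM of at least 1, the others by range, of each pathway list the 4 highest genes and those past 3-fold at an RPKM of at least 10, of each marker list the 2 highest. A few genes that this rule names are not reported here. Other genes (*Dcpp1*, *Pigr*, *Aqp5*, *Pkd2l1*, *Kcnq1*, *Cd207*, the hepatocyte markers) were picked with values known. The depth estimate, intervals and window counts were tested on simulated data. Alternatives were other minimums, pseudocounts, folds, lengths and scalings. Python 3.11.15, numpy 2.4.6, pandas 2.3.3, scipy 1.17.1 and matplotlib 3.10.9 were used.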

Additional observations from a re-analysis of the deposited data

How the results depend on the processing

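No paired analysis was possible because there are no replicates to pair, and for the same reason none was left out. Depth limits the members below an RPKM of 1, and the intervals cover counting error only.

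The 9 members higher by 2-fold were 5 at a minimum RPKM of 3 and 15 with none. The 1 lower was 4 with no minimum, 3 at 1.5-fold, 0 at 3-fold and 2 divided by the median ratio. The 4 with no minimum were *Gsta1* and the rows *Ugt2b1*, *Ugt2b34* and *Ugt3a2*, which had at most 3 reads in either library. The 1 member past the criteria was 7, 3, 2 and 0 at a minimum RPKM of 1, 3, 5 and 20, 3 with a minimum ratio of 2, 0 with one of 5, and 4 rescaled to the same sum. The 0 members past the opposite criteria were 1 at a minimum ratio of 2 and 1 divided by the median ratio. These follow from looser or stricter limits and from the scaling. Shares of all rows were calculated only at the main settings and, for the 2-fold counts, under the 2 scalings. The other counts have no such share beside them and cannot be read against it.

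Dividing by the median ratio and rescaling to the same sum, which also let more rows past the minimum (32 members in place of 31), moved medians of log2 ratios: *Gst* from 0.16 to -0.23 and 0.43, *Ugt* from 0.47 to 0.079 and 0.74, *Sult* from 3.63 to 3.24 and 2.52, glutathione synthesis from 0.33 to -0.061 and 0.58, microsomal transferases and peroxidases from 1.22 to 0.83 and 1.52, UDP-glucuronate supply from 0.87 to 0.48 and 1.14, sulfate supply from 0.86 to 0.47 and 1.19, export pumps from 0.88 to 0.49 and 1.05, and the Nrf2 list from 0.05 to -0.34 and 0.29. Rescaled to the same sum, other conjugating enzymes moved from 2.65 to 1.75. A pseudocount of 1 gave 1.74 for *Sult*, 1.04 for microsomal transferases and peroxidases, 1.12 for other conjugating enzymes and 0.74 for export pumps. With no minimum the median was 0.78 for *Sult*, 0.34 for other conjugating enzymes and 0.57 for export pumps, and at a minimum of 3 it was 0.96 for other conjugating enzymes.

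Ratios of summed RPKM were 1.48 (*Gst*), 1.38 (*Ugt*, with rows that share exons) and 0.844 (*Sult*). They were 1.13, 1.05 and 0.643 divided by the median ratio, 1.79, 1.66 and 1.02 rescaled to the same sum, and 1.04, 1.32 and 16.2 without the highest row. Each member has a symbol of its own, so counting symbols once changed nothing. Of the 31 members past the minimum, 5 changed side of a ratio of 1 when divided by the median ratio (*Gsta4*, *Gstk1*, *Gstm1*, *Gstm2* and *Ugt1a7c*) and 1 when rescaled (*Gstp1*), and none of these 6 differed by 2-fold. The sums of the near-identical pairs and the listed length for *Ugt1a* were chosen after seeing the data.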
